A study of Zea mays with 30 samples.

Results

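The 5 genes described here are candidates for germination speed in maize: Zm00001d027300 (PAIR1), Zm00001d027366 (the peroxisomal membrane protein PEX11-1), Zm00001d027332 (the nonspecific lipid-transfer protein noLTP), Zm00001d027313 (hydrolase protein 32) and Zm00001d027325 (a peptidoglycan-binding LysM domain protein). They are 5 of the 39005 genes in the count tables, and each is among the 34746 genes with at least 1 read in the 30 libraries. The study listed 87 genes around a locus for germination speed and looked among them for differences between the lines at 12 hours after imbibition (HAI). These 5 genes are among the candidates that the paper presents, although its text does not state that each of them differed at 12 HAI. Their difference at 12 HAI is given as a description with no test. The fitted log2 fold change of LysM at 12 HAI was only -0.16, short of the study's fold threshold of 2. The paper's most likely candidates were malic enzyme genes and a putative COP gene, and none of these 5 is among them. The paper kept its other genes from that step as possible candidates only. How each gene entered the candidates is not stated, and whether other times played a part is not stated either, so the tests at the other times may not be wholly independent of the choice. Tests of 12 HAI against dry seeds share libraries with the comparison of the lines at 12 HAI. Their p-values are therefore no independent measure of these genes.

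RNA was sequenced from whole seeds of a pair of maize inbred lines that imbibed water on moist filter paper after surface sterilization with hydrogen peroxide. The fast-germinating line 72-3 was sampled as dry seeds (0 HAI) and at 6, 12 and 24 HAI, and the slow-germinating line F9721 as dry seeds and at 6, 12, 24, 36 and 48 HAI. Each of the 10 groups has 3 libraries, which the labels call biological replicates without tying a replicate number to an ear or a dish. The labels name no transgene, mutation or treatment other than imbibition, and each line stands for a single inbred genotype. A level in a whole seed sums embryo, endosperm and seed coat, so fewer cells of a type and less RNA per cell cannot be told apart. The tissue label was not checked against marker genes, because the identifiers were not paired with symbols in the tables used here.

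The genes belong to unrelated protein families. PAIR1 is known from rice as a coiled-coil protein needed for homologous chromosomes to pair in meiosis, PEX11 proteins drive the elongation and division of peroxisomes, and nonspecific lipid-transfer proteins are small secreted proteins that carry lipids and act at cuticles and in defence. In germinating seeds the peroxisomes break down the fatty acids of stored oil. LysM domains bind glycans that contain N-acetylglucosamine, such as peptidoglycan and chitin, and the name hydrolase protein 32 gives no substrate.

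The libraries held 8080968 to 14192708 counts on genes. Levels are given as normalized CPM, which are counts per 1000000 after scaling of the library sizes by the TMM method. One library of 72-3 at 24 HAI (replicate 1) had the lowest correlations with the rest of its group, at r = 0.921 and 0.948 across 22184 genes. Replicate 3 of F9721 at 36 HAI, replicate 3 of F9721 at 48 HAI and replicate 2 of 72-3 at 6 HAI also stood somewhat apart from their groups, and results that turn on any of these libraries are given without it as well. The share of reads that fell outside annotated genes ranged from 5.59% to 20.9%, and its median in 72-3 was 14.5% in dry seeds and 7.0% at 24 HAI. The part of this share in the results was not tested. Reads of both lines were aligned to the B73 reference genome. The mapping rates in the paper's supplement were higher in every 72-3 library than in every F9721 library. In a difference between the lines, sequence divergence from B73 or a missing copy cannot be told apart from a lower RNA level, and this was not tested.

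PAIR1 (Zm00001d027300), the meiosis gene by name, stood lower in 72-3 than in F9721 in every library. In 72-3 it had 1.06, 2.35 and 1.92 CPM in dry seeds, 1.36, 1.57 and 1.32 CPM at 6 HAI, 0.784, 1.07 and 1.12 CPM at 12 HAI, and 0.743, 1.07 and 0.61 CPM at 24 HAI. In F9721 it had 5.76, 6.03 and 7.76 CPM in dry seeds, 4.42, 5.80 and 4.39 CPM at 6 HAI, 6.66, 5.87 and 5.47 CPM at 12 HAI, and 6.36, 6.85 and 6.07 CPM at 24 HAI. The last F9721 groups had 7.18, 5.47 and 6.78 CPM at 36 HAI and 5.40, 6.65 and 5.64 CPM at 48 HAI. The highest of the 12 libraries of 72-3, at 2.35 CPM, thus lay below the lowest of the 18 libraries of F9721, at 4.39 CPM. The share of all genes whose libraries were set apart by line was not counted, here or for the genes below. In reads, PAIR1 had 8 to 18 counts per library in 72-3 dry seeds and 48 to 76 in F9721 dry seeds.

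**Figure D1:**
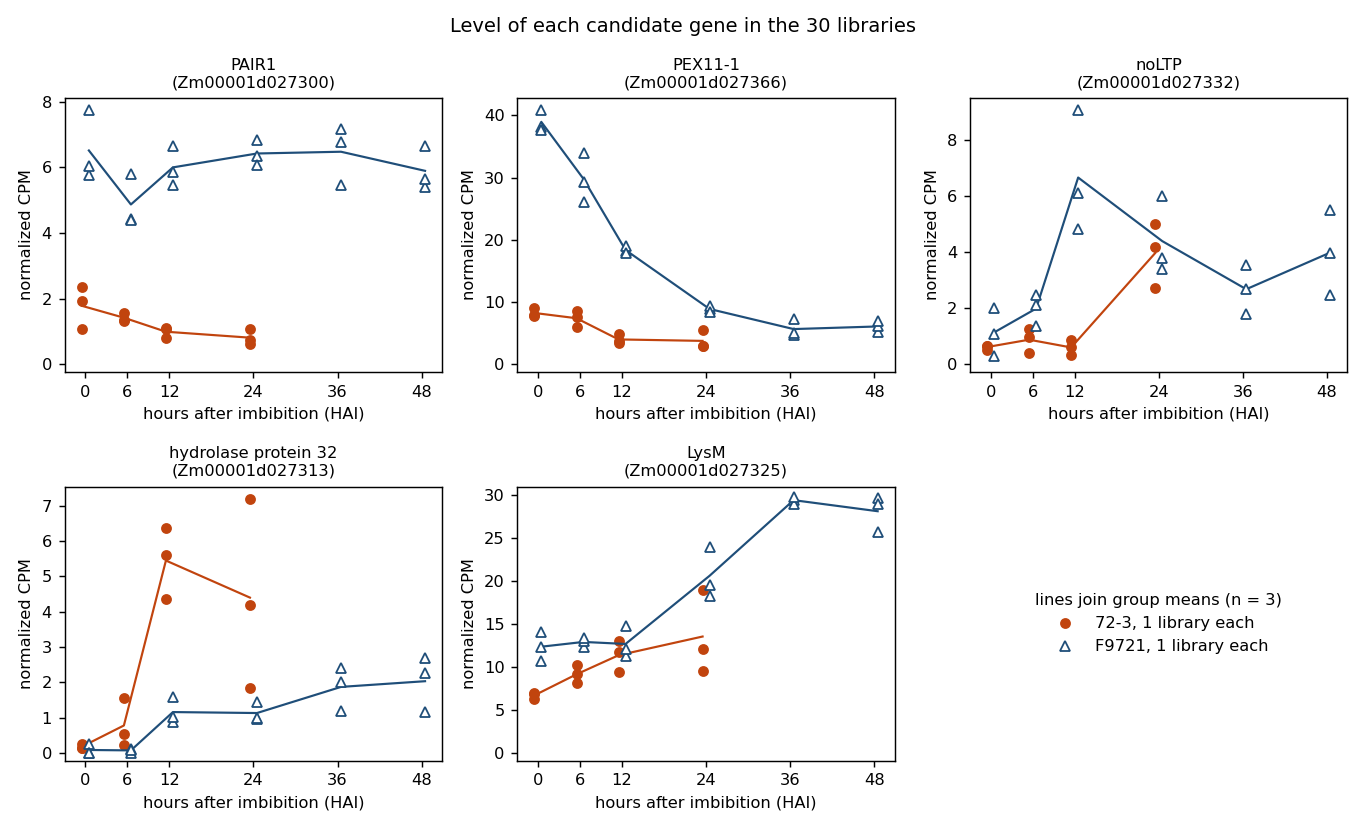
Normalized CPM of each candidate gene (vertical axis) against hours after imbibition (horizontal axis), with filled circles for the 12 libraries of 72-3, open triangles for the 18 libraries of F9721, and lines through the group means of 3 libraries. The lines are shifted slightly apart along the time axis. PAIR1 lay at 0.61 to 2.35 CPM in 72-3 and at 4.39 to 7.76 CPM in F9721, while PEX11-1 started at 38.9 CPM in F9721 dry seeds and stood at 6.06 CPM at 48 HAI.

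The next question was whether the lines differed at times other than 12 HAI as well. PAIR1 was lower in 72-3 dry seeds, and its log2 fold change there was -1.87 (SE 0.25, edgeR adjusted p = 4.80e-07). SE is an approximate standard error, the absolute log2 fold change divided by the square root of the F statistic of the edgeR test. At 6 HAI the log2 fold change of PAIR1 was -1.77 (SE 0.26, edgeR adjusted p = 1.72e-06). At 24 HAI the log2 fold change was -2.996 (SE 0.26, edgeR adjusted p = 3.86e-11). At the last sampled stages, 72-3 at 24 HAI against F9721 at 48 HAI, it was -2.87 (SE 0.26, edgeR adjusted p = 1.66e-10). At 12 HAI the fitted log2 fold change was -2.61. PAIR1 was lower in 72-3 under every alternative run at each of these times, and the smallest difference came from log2(TPM + 1) at 6 HAI, at -0.58.

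Over time, with all libraries in the edgeR fit, PAIR1 (Zm00001d027300) passed the test in 72-3 only, and only at 24 HAI. In 72-3 its log2 fold change from dry seeds was -0.32 at 6 HAI (edgeR adjusted p = 0.736), -0.86 at 12 HAI (edgeR adjusted p = 0.0237) and -1.15 at 24 HAI (edgeR adjusted p = 0.00136). At 12 HAI it passed without replicate 1 of the dry seeds, at -1.12 (edgeR adjusted p = 0.00625). The fall at 24 HAI did not pass the threshold without replicate 2 of the dry seeds (edgeR adjusted p = 0.0416) or without replicate 3 at 24 HAI (edgeR adjusted p = 0.0109), nor with library totals in place of TMM, with only the groups compared or on the TPM values. In F9721 no time passed the threshold against dry seeds, and the log2 fold changes lay between -0.42 at 6 HAI and -0.01 at 36 HAI. The sign at 24, 36 and 48 HAI in F9721 depended on the scaling, and on log2(TPM + 1) PAIR1 was higher at 36 HAI by 0.48 and at 48 HAI by 0.36 (adjusted p = 2.30e-04 and 0.00356, limma). The change from dry seeds to 24 HAI differed between the lines by -1.13 (SE 0.37), which missed the threshold (edgeR adjusted p = 0.0189). It passed without replicate 1 of the 72-3 dry seeds, at -1.39 (edgeR adjusted p = 0.00423), and without replicate 2 of 72-3 at 24 HAI, at -1.35 (edgeR adjusted p = 0.00908).

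PEX11-1 began far lower in 72-3 than in F9721, and the lines stood closer at later times. In 72-3 it had 9.03, 7.70 and 7.95 CPM in dry seeds, 7.56, 5.97 and 8.60 CPM at 6 HAI, 3.79, 3.36 and 4.76 CPM at 12 HAI, and 2.91, 2.87 and 5.43 CPM at 24 HAI. In F9721 it had 40.9, 38.2 and 37.7 CPM in dry seeds, 34.0, 29.3 and 26.1 CPM at 6 HAI, 18.2, 18.9 and 17.9 CPM at 12 HAI, and 8.80, 9.38 and 8.42 CPM at 24 HAI. Later F9721 seeds had 4.68, 5.02 and 7.20 CPM at 36 HAI and 5.13, 6.17 and 6.88 CPM at 48 HAI. At each of the 4 shared times the libraries of the lines did not overlap, yet the F9721 libraries at 36 and 48 HAI lay within the range of the 72-3 libraries. The level of F9721 at 24 HAI was close to that of 72-3 dry seeds.

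In dry seeds PEX11-1 (Zm00001d027366) averaged 8.23 ± 0.706 CPM in 72-3 seeds, against 38.9 ± 1.74 CPM in F9721 seeds (SD, n = 3 each). The log2 fold change between the lines was -2.24 in dry seeds (SE 0.20, edgeR adjusted p = 1.42e-10) and -2.02 at 6 HAI (SE 0.20, edgeR adjusted p = 1.21e-09). It was -1.24 at 24 HAI (SE 0.21, edgeR adjusted p = 7.71e-06) and -0.75 on log2(TPM + 1), and the fitted value at 12 HAI was -2.22. For the last sampled stages it was -0.69 (SE 0.21, edgeR adjusted p = 0.00882). That last difference did not pass the threshold without replicate 1 of 72-3 at 24 HAI, at -0.53 (edgeR adjusted p = 0.0572), nor without replicate 2 there, at -0.55, nor without replicate 2 or 3 of F9721 at 48 HAI, at -0.68 and -0.59 (edgeR adjusted p = 0.0249 and 0.0486), nor with library totals, with only the groups compared or on the TPM values. Without replicate 3 of 72-3 at 24 HAI it was -1.07.

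PEX11-1 fell in both lines. In 72-3 the log2 fold change from dry seeds was -0.16 at 6 HAI (edgeR adjusted p = 0.829), and it fell by 1.06 at 12 HAI (edgeR adjusted p = 2.25e-04) and by 1.13 at 24 HAI (edgeR adjusted p = 3.33e-05). On the TPM values neither of these falls passed the threshold, with -0.59 and -0.46 on log2(TPM + 1), and the one at 24 HAI also missed it with only the groups compared. In F9721 it fell by 1.08 at 12 HAI (edgeR adjusted p = 3.88e-05), by 2.13 at 24 HAI (edgeR adjusted p = 2.04e-10), by 2.79 at 36 HAI (edgeR adjusted p = 4.98e-13) and by 2.68 at 48 HAI (edgeR adjusted p = 8.85e-13). The F9721 libraries at 24, 36 and 48 HAI all lay below those of its dry seeds, with no overlap.

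The fall of PEX11-1 (Zm00001d027366) by 24 HAI was smaller in 72-3 than in F9721. The interaction of line and time, a test of whether both lines changed by the same amount after dry seeds, was 1.001 on the log2 scale (SE 0.29, edgeR adjusted p = 0.00747). This call was narrow: it was lost in 9 of the 12 fits that left out a library, with an adjusted p of up to 0.081 without replicate 3 of 72-3 at 24 HAI, where the interaction was 0.63. It was also lost with only the groups compared (edgeR adjusted p = 0.0174).

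**Figure D2:**
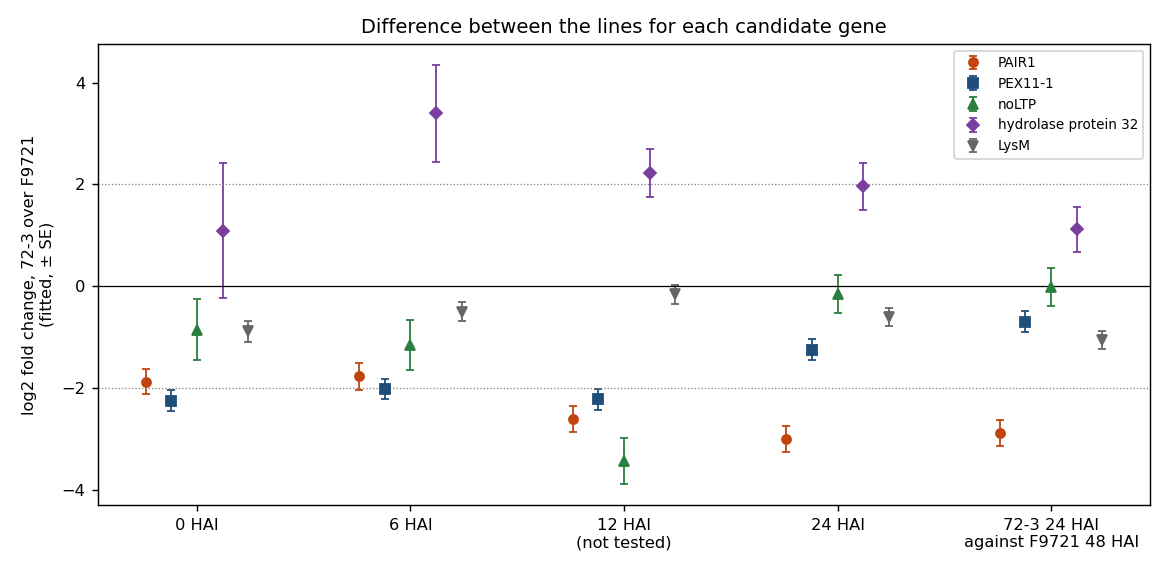
Fitted log2 fold change of 72-3 over F9721 (vertical axis) for each candidate gene, with error bars for the approximate standard error (SE). The comparisons are in dry seeds, at 6, 12 and 24 HAI and between the last sampled stages. Dotted lines mark the fold threshold of 2 on the log2 scale in either direction. PAIR1 and PEX11-1 lay below 0 throughout, hydrolase protein 32 lay above 0 throughout, noLTP lay far below 0 at 12 HAI (-3.43) and near 0 at 24 HAI (-0.15), and LysM at 12 HAI changed sign with the scaling.

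The lipid-transfer gene noLTP had few reads in dry seeds, with 4 to 5 counts per library in 72-3 and 3 to 17 in F9721, and it rose later in both lines. In 72-3 it had 0.664, 0.653 and 0.513 CPM in dry seeds, 1.24, 0.979 and 0.397 CPM at 6 HAI, 0.849, 0.328 and 0.608 CPM at 12 HAI, and 5.02, 4.18 and 2.71 CPM at 24 HAI. The F9721 libraries had 1.08, 2.01 and 0.306 CPM in dry seeds, 1.36, 2.13 and 2.47 CPM at 6 HAI, 9.08, 6.11 and 4.82 CPM at 12 HAI, and 3.40, 6.00 and 3.79 CPM at 24 HAI. The later F9721 groups had 3.55, 2.70 and 1.78 CPM at 36 HAI and 3.96, 5.52 and 2.49 CPM at 48 HAI. The F9721 libraries at 12 HAI were all above those of its dry seeds, whereas the 72-3 libraries at 12 HAI overlapped those of its dry seeds. In reads, the 72-3 libraries had 4 to 13 counts at 12 HAI and 40 to 81 at 24 HAI, against 52 to 109 in F9721 at 12 HAI.

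In 72-3 the log2 fold change of noLTP (Zm00001d027332) from dry seeds was 0.54 at 6 HAI (edgeR adjusted p = 0.775) and -0.00 at 12 HAI (edgeR adjusted p = 1), where its sign changed with the scaling. At 24 HAI it rose by 2.68 (SE 0.50, edgeR adjusted p = 3.08e-05), and by 2.47 without replicate 1 (edgeR adjusted p = 1.80e-04). In F9721 its value was 0.85 at 6 HAI (edgeR adjusted p = 0.486), and it rose by 2.58 at 12 HAI (SE 0.44, edgeR adjusted p = 3.81e-05) and by 1.98 at 24 HAI (edgeR adjusted p = 4.70e-04). Candidates were sought in the 12 HAI libraries, so the test at 12 HAI is no independent measure of this rise. The value at 36 HAI, 1.27, missed the threshold (edgeR adjusted p = 0.0209) but passed it without replicate 3 at 36 HAI, at 1.49 (edgeR adjusted p = 0.00983), and without replicate 2 of the dry seeds, at 1.98 (edgeR adjusted p = 0.00279). It also passed with library totals, at 1.57, and on log2(TPM + 1) and log2(TPM + 0.1), at 2.04 and 2.28 (adjusted p = 1.20e-04 and 1.68e-04, limma). At 48 HAI the rise was 1.84 (edgeR adjusted p = 7.82e-04) and reached 2.79 on log2(TPM + 0.1), and it missed the threshold without replicate 3 of the dry seeds, at 1.36 (edgeR adjusted p = 0.0125), and with only the groups compared (edgeR adjusted p = 0.0102).

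Away from 12 HAI, no difference between the lines passed the threshold for noLTP. The log2 fold changes were -0.85 in dry seeds (SE 0.59, edgeR adjusted p = 0.296), -1.16 at 6 HAI (SE 0.49, edgeR adjusted p = 0.0657) and -0.15 at 24 HAI (SE 0.37, edgeR adjusted p = 0.815). At the last stages it was -0.01 (SE 0.37, edgeR adjusted p = 1), and the signs at 24 HAI and at the last stages changed with the scaling. The fitted difference at 12 HAI was -3.43, with means of 0.595 ± 0.261 CPM in 72-3 seeds, against 6.67 ± 2.18 CPM in F9721 seeds (SD, n = 3 each). The interaction of line and time from 0 to 24 HAI was 0.71 (SE 0.70, edgeR adjusted p = 0.562), and the one from 0 to 12 HAI was not tested because candidates were sought at 12 HAI.

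Hydrolase protein 32 was almost without reads in dry seeds and reached higher levels in 72-3 than in F9721 by 24 HAI. In 72-3 it had 1, 2 and 1 counts in dry seeds, 2, 16 and 4 counts at 6 HAI, 86, 53 and 63 counts at 12 HAI, and 116, 51 and 27 counts at 24 HAI. F9721 had 2, 0 and 0 counts in dry seeds, 1, 0 and 1 counts at 6 HAI, 19, 11 and 11 counts at 12 HAI, and 11, 17 and 13 counts at 24 HAI, followed by 25, 32 and 14 counts at 36 HAI and 25, 33 and 14 counts at 48 HAI. As normalized levels, the 72-3 libraries had 5.62, 4.35 and 6.39 CPM at 12 HAI and 7.18, 4.18 and 1.83 CPM at 24 HAI, against 1.58, 0.862 and 1.02 CPM at 12 HAI and 0.958, 1.44 and 0.986 CPM at 24 HAI in F9721. At 12 and at 24 HAI every 72-3 library lay above every F9721 library, although the 24 HAI libraries of 72-3 were spread widely. A count of 0 allows up to 3 counts, which is at most 0.355 CPM in the F9721 libraries with a count of 0, and such limits cover counting error only.

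With so few reads in dry seeds, the fold change of hydrolase protein 32 (Zm00001d027313) is given as a ratio of summed counts per scaled library size, with a 95% interval for counting error. In 72-3 this ratio to dry seeds was 4.75 at 6 HAI (1.61 to 19.0), 31.1 at 12 HAI (12.0 to 115.1) and 25.9 at 24 HAI (9.95 to 95.9). In F9721 it was 0.883 at 6 HAI (0.064 to 12.2), 15.3 at 12 HAI (3.98 to 130.8), 14.9 at 24 HAI (3.88 to 127.5), 25.2 at 36 HAI (6.71 to 211.7) and 27.0 at 48 HAI (7.20 to 226.9). In edgeR, the rise in 72-3 passed the threshold at 12 HAI (adjusted p = 1.03e-06) and 24 HAI (adjusted p = 9.00e-07) but not at 6 HAI (adjusted p = 0.183). In F9721 the edgeR test passed at 12 HAI (adjusted p = 0.00171), 24 HAI (adjusted p = 9.08e-04), 36 HAI (adjusted p = 3.23e-05) and 48 HAI (adjusted p = 1.90e-05). Candidates were sought in the 12 HAI libraries of both lines, so the tests at 12 HAI are no independent measure of the rise. The call at 12 HAI in F9721 was lost without replicate 2 of the dry seeds (edgeR adjusted p = 0.013), without replicate 3 of the dry seeds (edgeR adjusted p = 0.0175) and without replicate 1 at 12 HAI (edgeR adjusted p = 0.0104). Without replicate 1 the F9721 dry seeds held 0 counts of this gene, and the fitted log2 fold changes from 12 to 48 HAI, 3.71 to 4.55 with all libraries, were then 6.66 to 7.51. On log2(TPM + 1), a scale that understates changes of low genes, the rise was 1.15 at 12 HAI in F9721 and 3.14 at 12 HAI in 72-3.

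Between the lines, the ratio of 72-3 to F9721 for hydrolase protein 32 (Zm00001d027313) was 2.31 in dry seeds (0.331 to 25.6), which did not pass the test (edgeR adjusted p = 0.573). At 6 HAI it was 12.4 (3.06 to 109.1, edgeR adjusted p = 0.0049), but 16 of the 22 counts of 72-3 came from replicate 2, and without this library the edgeR adjusted p was 0.126. The call at 6 HAI was also lost without any 1 of the F9721 libraries at 6 HAI (edgeR adjusted p of up to 0.0291). At 24 HAI it was 4.01 (2.85 to 5.76), a log2 fold change of 1.96 (SE 0.47, edgeR adjusted p = 7.23e-04), and without replicate 1 of 72-3 the log2 fold change was 1.39 (edgeR adjusted p = 0.0128). The call at 24 HAI was also lost with only the groups compared (edgeR adjusted p = 0.0101). At the last stages the log2 fold change of 1.12 missed the threshold (SE 0.44, edgeR adjusted p = 0.0425) and was 0.55 without replicate 1 of 72-3 (edgeR adjusted p = 0.357), while it passed without replicate 3 of 72-3, at 1.49 (edgeR adjusted p = 0.00518). The ratio at 12 HAI was 4.69, given as a description with no test.

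The LysM gene rose in both lines from a lower start in 72-3. In 72-3 it had 6.90, 6.27 and 6.92 CPM in dry seeds, 8.13, 10.2 and 9.13 CPM at 6 HAI, 11.7, 9.43 and 12.97 CPM at 12 HAI, and 19.0, 12.1 and 9.50 CPM at 24 HAI. F9721 libraries had 12.4, 10.6 and 14.1 CPM in dry seeds, 12.4, 13.04 and 13.4 CPM at 6 HAI, 11.2, 12.1 and 14.7 CPM at 12 HAI, and 18.3, 24.0 and 19.6 CPM at 24 HAI. At 36 HAI the F9721 libraries had 29.5, 29.0 and 29.8 CPM, and at 48 HAI 29.7, 25.7 and 29.0 CPM. The 72-3 libraries lay below all F9721 libraries in dry seeds and at 6 HAI, overlapped them at 12 HAI, and overlapped them at 24 HAI only through replicate 1 of 72-3.

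From dry seeds of 72-3 the log2 fold change of LysM (Zm00001d027325) to later times was 0.45 at 6 HAI (edgeR adjusted p = 0.266), and it rose by 0.76 at 12 HAI (SE 0.20, edgeR adjusted p = 0.0029) and by 1.02 at 24 HAI (SE 0.20, edgeR adjusted p = 4.41e-05). Without replicate 1 the rise at 24 HAI was 0.69 (edgeR adjusted p = 0.00142), and with only the groups compared it missed the threshold (edgeR adjusted p = 0.0123). In 72-3 the rise at 12 HAI missed the threshold in 3 of the 6 fits that left out a library (adjusted p of up to 0.0185, edgeR). The F9721 values were 0.06 at 6 HAI and 0.03 at 12 HAI (adjusted p = 1 for each, edgeR), with signs that changed with the scaling. It rose there by 0.74 at 24 HAI (SE 0.18, edgeR adjusted p = 0.00135), by 1.25 at 36 HAI (SE 0.18, edgeR adjusted p = 7.79e-07) and by 1.18 at 48 HAI (SE 0.18, edgeR adjusted p = 1.74e-06). The rise at 24 HAI missed the threshold without replicate 2 of the F9721 dry seeds (edgeR adjusted p = 0.0136) or without replicate 2 at 24 HAI (edgeR adjusted p = 0.0145). On log2(TPM + 0.1) the rises were larger, at 1.57 in 72-3 at 24 HAI and 1.998 in F9721 at 36 HAI.

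**Figure D3:**
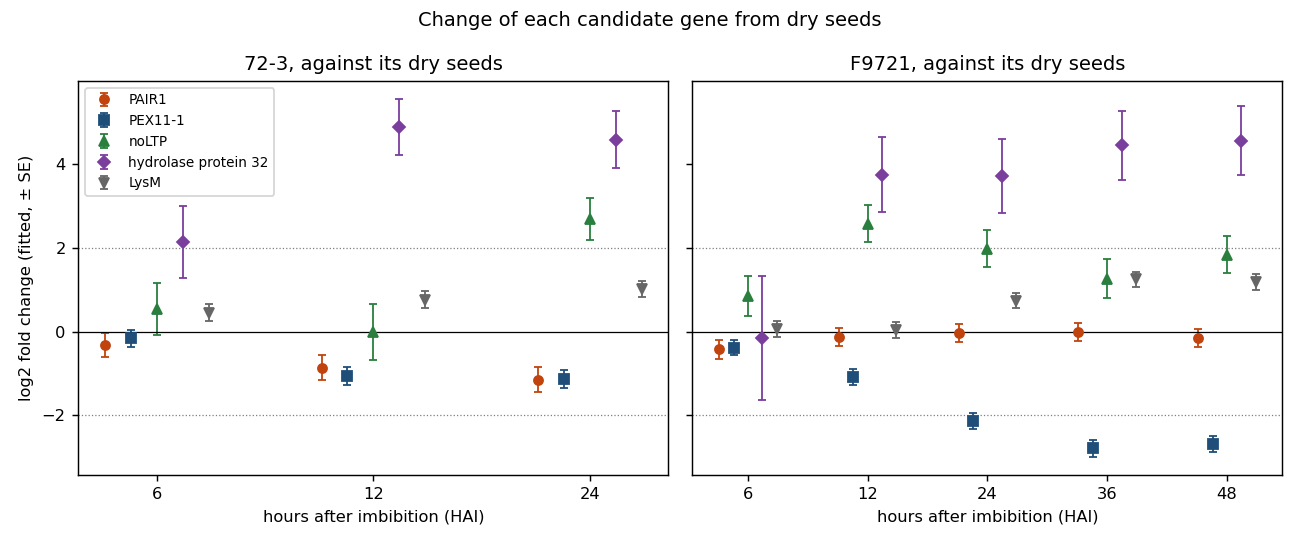
Fitted log2 fold change of each candidate gene from the dry seeds of its own line (vertical axis) at each time after imbibition. Error bars show the approximate standard error (SE). The left panel holds 72-3 and the right panel F9721, with dotted lines at the fold threshold of 2 on the log2 scale. At 12 HAI noLTP stood at -0.00 in 72-3 and at 2.58 in F9721. At 24 HAI PEX11-1 stood at -1.13 in 72-3 seeds, against -2.13 in F9721 seeds. In F9721 it reached -2.79 at 36 HAI, a time not sampled in 72-3. The fitted values of hydrolase protein 32 rest on 4 and 2 counts in the dry seeds of 72-3 and F9721 and depend on the prior count. The signs of PAIR1 in F9721 at 24, 36 and 48 HAI, of noLTP in 72-3 at 12 HAI, and of LysM in F9721 at 6 and 12 HAI changed with the scaling.

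LysM (Zm00001d027325) was lower in 72-3 than in F9721 in dry seeds, with a log2 fold change of -0.89 (SE 0.20, edgeR adjusted p = 6.34e-04), while -0.50 at 6 HAI missed the threshold (edgeR adjusted p = 0.0404). At 24 HAI it was lower by -0.60 (SE 0.18, edgeR adjusted p = 0.00537), a call that did not hold on log2(TPM + 1), where it was -0.22 (adjusted p = 0.278, limma), nor without replicate 3 of 72-3, where it was -0.40 (edgeR adjusted p = 0.0628). It was also lost without replicate 2 of 72-3 (-0.53) or replicate 2 of F9721 (-0.48), and it was -0.93 without replicate 1 of 72-3. At the last sampled stages the difference was -1.05 (SE 0.18, edgeR adjusted p = 1.78e-05), and -1.38 without replicate 1 of 72-3, and with only the groups compared it missed the threshold (edgeR adjusted p = 0.0157). At 12 HAI the libraries of the lines overlapped and the fitted value was -0.16, and its sign was the other way with library totals in place of TMM (0.11) and on log2(TPM + 1) (0.35).

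Counted over the 5 genes, the calls are read against the share of all 34746 genes that passed the same rule. A gene passed at an adjusted p of 0.01 or less, and it was called a DEG if its log2 fold change was also 2 or more in absolute size. In 72-3 against its dry seeds, none of the 5 passed the adjusted p at 6 HAI (2.99% of all genes, and 1.5% as DEGs). In edgeR 2 of the 5 had an unadjusted p under 0.05 at 6 HAI, the hydrolase and LysM, and DESeq2 called 0. At 12 HAI 3 of the 5 passed it, against 25.8% of all genes, and 1 was a DEG, hydrolase protein 32, against 5.94%. All 5 passed the adjusted p at 24 HAI, against 47% of all genes, and 2 were DEGs, hydrolase protein 32 and noLTP, against 21.6%. The tests at 12 HAI share libraries with the comparison in which candidates were sought, so nothing is read from their counts.

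In F9721 against its dry seeds, none of the 5 passed in edgeR at 6 HAI (3.21% of all genes, and 1.42% as DEGs), where PEX11-1 had an unadjusted p under 0.05 and DESeq2 called 0. At 12 HAI 3 of the 5 passed the adjusted p (17.9% of all genes) and 2 were DEGs, hydrolase protein 32 and noLTP (4.18%). At 24 HAI 4 passed (35.4% of all genes) and 2 were DEGs, hydrolase protein 32 and PEX11-1 (10.6%). At 36 HAI 3 passed (43.4%) with the same 2 genes as DEGs (18.7%), and at 48 HAI 4 passed (46%), again with hydrolase protein 32 and PEX11-1 as DEGs (21.4%). On log2(TPM + 1) noLTP (Zm00001d027332) was a DEG and PEX11-1 (Zm00001d027366) was not, with 2.38, 2.04 and 2.54 for noLTP and -1.64, -1.90 and -1.84 for PEX11-1 at 24, 36 and 48 HAI. The hydrolase was at 1.40 at 24 HAI on this scale, short of the fold threshold, so noLTP was the only DEG there. The times of a line share the same dry-seed libraries, so these counts are not independent of each other.

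Between the lines, 3 of the 5 were lower in 72-3 and none higher in dry seeds (28.2% of all genes passed, in either direction), and 1 was a DEG, PEX11-1 (11.2%). At 6 HAI 2 were lower and 1 higher in 72-3 (28.2%), with PEX11-1 and hydrolase protein 32 as DEGs (11.4%). At 24 HAI 3 were lower and 1 higher (41.8%), with PAIR1 as the only DEG of the 5 (18.1%). Of all genes, 3.42% were DEGs lower in 72-3 at each of 0, 6 and 24 HAI and 2.76% were DEGs higher at each, and none of the 5 was among them. For 72-3 at 24 HAI against F9721 at 48 HAI, 3 were lower and none higher (29.6%), and PAIR1 was a DEG (12.5%). In edgeR the interaction of line and time passed for none of the 5 from 0 to 6 HAI (0.147% of all genes, and 0.0777% as DEGs), with 0 of the 5 at an unadjusted p under 0.05 and 0 called by DESeq2, and for 1, PEX11-1, from 0 to 24 HAI (20.5%), where none was a DEG (7.76%). On log2(TPM + 1) the interaction of hydrolase protein 32 (Zm00001d027313) from 0 to 24 HAI also passed, at 1.57 (adjusted p = 0.00573, limma). At 12 HAI 4 of the 5, all but LysM, had a fitted log2 fold change of at least 2 in absolute size, against 22% of all genes, and nothing is read from this count because candidates were sought at that time.

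Levels can be set against each other between genes only per gene length, so the authors' TPM values were used for this. The noLTP gene had the highest mean TPM of the 5 in 72-3 at 24 HAI, 37.7 ± 7.72, and in F9721 at 12 HAI, 35.4 ± 8.08 TPM (SD, n = 3 each). In dry seeds PEX11-1 had the highest TPM of the 5 in both lines, with 6.35 ± 0.649 in 72-3 and 26.9 ± 1.96 in F9721 (SD, n = 3 each). PAIR1 had at most 0.436 ± 0.154 TPM in 72-3 and at most 2.42 ± 0.475 TPM in F9721 (SD, n = 3 each). The ratio of counts to TPM implies a gene length 25.2 times that of noLTP for PAIR1, 9.02 times for LysM, 8.04 times for PEX11-1 and 4.25 times for the hydrolase, and the lengths themselves are not stated. At 48 HAI in F9721, noLTP had 35.8 ± 11.6 TPM and LysM 28.5 ± 3.66 TPM (SD, n = 3 each), a gap smaller than the spread of noLTP.

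The order of each gene's group means of CPM shows which neighbouring groups are set apart by more than their libraries' spread. For PAIR1 all 4 groups of 72-3 ranked below all 6 groups of F9721, and each group of F9721 overlapped its F9721 neighbours in the order. For PEX11-1 the order ran in F9721 from dry seeds (38.9 ± 1.74 CPM) through 6 HAI (29.8 ± 4.01), 12 HAI (18.4 ± 0.542) and 24 HAI (8.87 ± 0.486), groups whose libraries did not overlap (SD, n = 3 each). LysM at 48 HAI in F9721 (28.1 ± 2.13 CPM) was set apart from the next group below it, F9721 at 24 HAI (20.6 ± 3.00 CPM), but overlapped F9721 at 36 HAI (29.4 ± 0.411 CPM; SD, n = 3 each). Each noLTP group overlapped its neighbours in the order, and so did each group of the hydrolase.

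The 5 genes were also set beside the nearest genes of the study's locus list by identifier number, as a check on whether the line differences extended along the list. Vacuolar protein 8 (Zm00001d027365), the listed gene before PEX11-1, went the opposite way in dry seeds, with 7.14 ± 0.917 CPM in 72-3 seeds, against 1.11 ± 0.36 CPM in F9721 seeds (SD, n = 3 each) and a log2 fold change of 2.66 (edgeR adjusted p = 4.44e-06). The gene after PEX11-1, riboflavin biosynthesis protein ribD (Zm00001d027367), did not pass in dry seeds (-0.18, edgeR adjusted p = 0.397) and was lower in 72-3 at 24 HAI, by -2.01 (edgeR adjusted p = 2.30e-11). The listed gene before PAIR1, mediator subunit 12-like (Zm00001d027299), had 0.53 in dry seeds and 0.06 at 24 HAI and passed at none of 0, 6 and 24 HAI, while the one after it (Zm00001d027302) was higher in 72-3 dry seeds, by 1.496 (edgeR adjusted p = 6.97e-05). Beside LysM, THO complex subunit 1 (Zm00001d027324) was higher in 72-3 by 0.75 in dry seeds and by 0.84 at 6 HAI (edgeR adjusted p = 2.08e-05 and 3.72e-06), and Zm00001d027326 passed at none of these times. Beside noLTP, Zm00001d027333 was higher in 72-3 dry seeds by 0.50 (edgeR adjusted p = 0.00312), and Zm00001d027330 had 10 to 20 counts per library in 72-3 at 24 HAI and 0 in F9721 at 24 HAI (edgeR adjusted p = 3.43e-04). Both neighbours of the hydrolase, Zm00001d027312 and Zm00001d027314, passed at none of these times. Of the other 82 genes of the list, 77 had a read. At an adjusted p of 0.01 or less in edgeR, 11 were higher and 10 lower in 72-3 in dry seeds (27.3%, against 28.2% of all genes). At 6 HAI 9 were higher and 11 lower (26.0%, against 28.2%), and at 24 HAI 14 were higher and 19 lower (42.9%, against 41.8%). These shares were close to those of all genes.

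The gene whose level over the 30 libraries was most like each candidate was sought with Pearson's r of log2(CPM + 1), as a description, since the libraries share line and time. Among 22183 other genes it was Zm00001d029542 for PAIR1 (r = 0.972), Zm00001d008752 for PEX11-1 (r = 0.983), Zm00001d008764 for noLTP (r = 0.882), Zm00001d006590 for the hydrolase (r = 0.931) and Zm00001d044747 for LysM (r = 0.954). By Spearman's rank correlation none of these stayed the most alike, and they ranked 221, 7, 20, 13 and 8 in this order of candidates. Zm00001d029542 had group means of 0.048 to 0.39 CPM in 72-3 and 2.46 to 3.86 CPM in F9721, so its r with PAIR1 largely reflects the line difference. Within the locus list the most alike for PAIR1 was Malic enzyme1 (Zm00001d011289, r = 0.963). Malic enzyme1 had 0 counts in every 72-3 library and group means of 9.8 to 13.9 CPM in F9721, so this r largely reflects the line difference. For LysM the most alike was an uncharacterized gene (Zm00001d027314, r = 0.907), next to hydrolase protein 32 in the list. For PEX11-1 it was Zm00001d027359 (r = 0.878), and Zm00001d027323 came first for both noLTP (r = 0.745) and the hydrolase (r = 0.673).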

How the data were processed

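Whole-seed RNA was sequenced with paired reads in 30 libraries, grouped by the line and time in their labels. The authors used fastp for trimming, Hisat2 for alignment to B73 AGPv4 and HTSeq for counting, and they deposited the counts without normalization. TPM came from the authors too and sum to 1000000 per library. Versions of these tools, whether counting used strand, and gene lengths are not given in the sources used here, so overlapping or antisense neighbours and near-identical copies of a gene are uncertain. Entries without a gene were left out of library sizes (5.59% to 20.9% of tallied reads lay outside genes, and 1.60% to 2.11% overlapped several genes).

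The counts were fitted with edgeR 4.0.16 under R 4.3.3 (TMM, quasi-likelihood test, 10 group means over all 30 libraries, Benjamini-Hochberg adjustment over the 34746 genes with a read). "Rose", "fell" and "differed" stand for an adjusted p of at most 0.01, and DEGs had in addition a log2 fold change of 2 or more in absolute size. The steps were run on simulated counts in which a small share of genes changed, in a single group, and none of them at very low counts. That setting differs from these data, so it does not vouch for genes with few reads or for comparisons in which many genes change. Alternatives were DESeq2 1.42.0, its size factors, library totals, filterByExpr, the replicate number as a block, only the groups compared, limma 3.58.1 on log2(TPM + 1) and log2(TPM + 0.1), and leaving out each library. The same alternatives for the 12 HAI difference were added after the values were seen. Likeness was sought among genes whose mean log2 CPM was 0 or more. Count ratios have exact 95% intervals.

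The genes named are the 5 candidates, their nearest neighbours by identifier number in the study's locus list, and the gene most like each. The members and lists were chosen with earlier results of these data known. Gene names are those of the study's locus list, since 0 of 39005 identifiers matched the RefSeq gene table. Pathway lists, marker genes and sequences were not used here. The germination test that gave the seeds was set up with ears as its 3 replicates, per the methods, and the labels tie no replicate number to an ear.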

Additional observations from a re-analysis of the deposited data

Results flagged for a closer look

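The change of PEX11-1 (Zm00001d027366) from dry seeds to 24 HAI differed between the lines by a test of that difference, with an interaction of line and time of 1.001 on the log2 scale (SE 0.29, edgeR adjusted p = 0.00747). Its log2 fold change over this time was -1.13 in 72-3 and -2.13 in F9721, and 20.5% of all genes tested passed the same interaction test. The call was lost in 9 of the 12 fits that left out a library and with only the groups compared (edgeR adjusted p = 0.0174).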

How the results depend on the processing

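The number of DEGs among the 5 genes moved under these settings. On log2(TPM + 1) it was 1 in F9721 at 12 HAI and 1 at 24 HAI, 0 between the lines in dry seeds, at 6 HAI, at 24 HAI and at the last stages. On log2(TPM + 0.1) it was 1 between the lines at 6 HAI and 2 at 24 HAI. At 12 HAI the number past the fold between the lines, with no test, was 2 on each TPM scale. Library totals gave 1 at 6 HAI and 2 at 24 HAI, filterByExpr 1 at 6 HAI, and DESeq2 and its size factors 2 each at 24 HAI, where the hydrolase lies next to the fold threshold. Leaving out 1 library gave 1 to 2 in F9721 at 12 HAI and, between the lines, 1 to 2 in dry seeds, 0 to 2 at 6 HAI and 1 to 2 at 24 HAI. The cause was not tested.

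Every change of sign befell a log2 fold change that had not passed the threshold. For noLTP in 72-3 at 12 HAI it was 0.32 with library totals, 0.018 with only the groups compared, and 0.19 and 0.22 on the TPM scales with pseudocounts of 1 and 0.1. For noLTP between the lines it was 0.0031, 0.27 and 0.27 at 24 HAI and 0.068, 0.10 and 0.11 at the last stages (library totals and the TPM scales). For PAIR1 (Zm00001d027300) in F9721 it was 0.22, 0.22 and 0.34 at 24 HAI, 0.28, 0.48 and 0.71 at 36 HAI (adjusted p = 2.30e-04 and 0.00814 by limma on TPM) and 0.17, 0.36 and 0.54 at 48 HAI. For LysM (Zm00001d027325) in F9721 it was -0.0128 and -0.0125 at 6 HAI on the TPM scales, and at 12 HAI -0.076 with DESeq2, -0.074 with its size factors, and -0.0031 and -0.0039 on the TPM scales. The hydrolase in F9721 at 6 HAI had 0.12 on log2(TPM + 0.1). Leaving out 1 library gave these ranges that cross 0: noLTP -0.41 to 0.29 in 72-3 at 12 HAI, -0.36 to 0.14 between the lines at 24 HAI and -0.26 to 0.30 at the last stages. PAIR1 in F9721 had -0.20 to 0.027 at 12 HAI, -0.11 to 0.12 at 24 HAI, -0.094 to 0.13 at 36 HAI and -0.24 to 0.0015 at 48 HAI. LysM had -0.035 to 0.17 at 6 HAI and -0.083 to 0.14 at 12 HAI in F9721, and the hydrolase -0.75 to 2.79 at 6 HAI. The interactions from 0 to 6 HAI ranged from -0.16 to 0.35 for PAIR1, -0.65 to 2.89 for the hydrolase and -1.02 to 0.17 for noLTP, and those from 0 to 24 HAI from -2.09 to 1.45 for the hydrolase, -0.049 to 0.49 for LysM and -0.0077 to 1.18 for noLTP. Calls of the 5 genes missed the threshold with their sign kept 9 times with only the groups compared (PAIR1, PEX11-1 and LysM in 72-3 at 24 HAI, noLTP in F9721 at 48 HAI, the hydrolase and LysM between the lines at 24 HAI, PEX11-1 and LysM at the last stages, and the PEX11-1 interaction), 3 times with library totals, 6 and 5 times on the TPM scales and 32 times in the fits without 1 library, and 0 times with DESeq2, its size factors, filterByExpr or the block.

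Replicate numbers are shared between groups, and the deviations of same-numbered libraries from their group means correlated at r from -0.12 to 0.34. In several comparisons all 3 pairs had a positive r, such as 0.20, 0.06 and 0.34 for 72-3 at 24 HAI against F9721 at 48 HAI. With the replicate number as a block, noLTP (Zm00001d027332) in F9721 at 36 HAI passed the threshold at 1.28 (edgeR adjusted p = 0.00859), the noLTP difference at the last stages was 0.00504, and the block changed no other call of the 5 genes. The scale moves the median of 22184 genes: by 0.42 with library totals and 0.54 on log2(TPM + 1) for 72-3 at 24 HAI, by 0.66 on log2(TPM + 1) for F9721 at 36 HAI, and by 0.37 on log2(TPM + 1) between the lines at 24 HAI. Depth limits PAIR1 and noLTP in 72-3 and the hydrolase before 12 HAI, where libraries held few reads.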
